A study of Mus musculus with 12 samples.

Results

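The genes described here are 10 immediate-early transcription factor genes, Fos and Fosb of the FOS family, Jun, Junb and Jund of the JUN family, Egr1, Egr2 and Egr3 of the EGR family, and Nr4a1 and Nr4a3 of the NR4A family. They were chosen by name, and all 10 were found among the 26305 genes with an identifier in the count table. Messenger RNA was measured in EMRK1184luc, a B cell lymphoma line that arose in 1 female Eµ-Myc mouse and was then given a luciferase gene by a lentivirus for imaging. The 4 groups of 3 libraries each were cultures kept for 3 or 6 days in the vehicle DMSO, or for 3 or 6 days in 5 µM WM-1119, which blocks the lysine acetyltransferases KAT6A and KAT6B. Every group, the vehicle groups included, carries the Myc transgene, which the immunoglobulin heavy chain enhancer drives in B lineage cells, and the luciferase construct. No stimulus other than the inhibitor is named in the labels, and whether medium, serum or handling had induced these genes was not tested. The replicates come from 1 line and the labels give no separate culture date for them, so p-values speak only of the variation among these samples.

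Immediate-early genes are transcribed within minutes of a growth factor, stress or antigen receptor signal, from factors that are already in the cell and without new protein synthesis. Kinases of the ERK, JNK and p38 pathways and calcium act on SRF with its ETS partners at CArG boxes and on CREB at cyclic AMP response elements near their promoters, and the transcripts are short-lived. FOS and JUN proteins pair through leucine zippers into the factor AP-1, EGR proteins bind GC-rich sites through zinc fingers, and NR4A proteins are nuclear receptors that act without a known hormone. In B cells these genes are used as readouts of antigen receptor signalling.

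Of the 10 genes, 8 had a promoter entry in the RefSeq table of build GRCm38.p6, in 12 windows of 300 bases from 250 bases before to 50 bases after a transcription start. Egr1 and Egr3 are named only. The 4 stretches shown are the 150 bases before the start of Egr2, Fos and Jun: Egr2 and Fos because they had among the lowest fold changes of all genes tested, Egr2 with 2 stretches because its 2 separate CArG boxes lie before different starts, and Jun because it is a family member of the same class that did not pass the test. Capitals mark a CArG box (CC, a run of 6 A or T, GG) or the AP-1 and cyclic AMP type motif TGANNTCA.
Egr2, upstream start, chr10:67537416-67537565, plus strand: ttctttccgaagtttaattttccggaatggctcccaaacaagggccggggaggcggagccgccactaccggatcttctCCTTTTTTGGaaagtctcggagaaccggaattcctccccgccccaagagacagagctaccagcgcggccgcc
Egr2, downstream start, chr10:67537719-67537868, plus strand: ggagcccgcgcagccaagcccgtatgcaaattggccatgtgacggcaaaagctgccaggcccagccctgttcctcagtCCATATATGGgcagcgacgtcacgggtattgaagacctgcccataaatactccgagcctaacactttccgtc
Fos, chr12:85473740-85473889, plus strand: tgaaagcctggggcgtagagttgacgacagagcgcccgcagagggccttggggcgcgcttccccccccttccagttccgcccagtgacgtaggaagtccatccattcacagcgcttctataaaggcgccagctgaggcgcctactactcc
Jun, chr4:95052223-95052372, minus strand: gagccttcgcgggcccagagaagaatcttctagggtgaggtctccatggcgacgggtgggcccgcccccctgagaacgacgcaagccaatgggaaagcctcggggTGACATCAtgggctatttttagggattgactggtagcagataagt
None of the 4 stretches overlaps an exon in GENCODE vM21. In the upstream Egr2 stretch the CArG box began at -72, counted from the start of transcription, and in the downstream stretch a second one also began at -72. Of the 8 genes with a window only Egr2 held a CArG box, a motif found in 1.81% of the 27025 genes of the table (1.63% of its 32851 windows). The motif TGANNTCA was found in 3 of the 8, at -45 and 3 in Jun, at -61 in Jund and at 6 in the upstream Egr2 window, against 15.9% of all genes (14.1% of windows). The full site TGACGTCA, which TGANNTCA includes, and the AP-1 site TGANTCA were in none of the 8 (2.03% and 8.97% of all genes; 1.79% and 7.81% of windows). The EGR type motif GCGNGGGCG was in Fosb and Nr4a1 (6.27% of all genes; 5.55% of windows), and the ETS core CCGGAA in Egr2 and Nr4a1 (16.7% of all genes; 14.9% of windows). Egr2 has 5 of the 12 windows and so more sequence searched than the others. Both strands were searched, and Fos, Junb and Nr4a3 held none of the 6 motifs in these windows. Sequence more than 250 bases before a start and partial matches to a motif were not searched. A motif missing here is thus not shown to be missing from the gene. A match is a run of letters, not a measured site.

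Library totals ranged from 14736267 to 41749357 counts. The B cell identity of the label was borne out by Cd79a at 610 to 702 CPM (counts scaled by library total and TMM factor) and Pax5 at 83.8 to 137 CPM, whereas Ms4a1 of the same list was near 0 in all libraries. The 10 T cell markers summed to 4.61 to 7.15 CPM over the 12 libraries, with 5 of them, among them Cd3e, Cd4 and Cd8a, at 0. Zap70 carried most of that sum (3.33 to 5.72 CPM), and Cd28 was lower with WM-1119 at both times (adjusted p = 0.0296 and 0.0248). The summed macrophage list was 176 to 179 CPM with DMSO and 139 to 142 CPM with WM-1119 at 3 days, and 173 to 178 and 160 to 161 CPM at 6 days; Itgam and Mrc1 carried it, and 6 of its 10 genes were under 1 CPM, Adgre1 with at most 0.136 CPM. Within that list Mrc1 fell (log2 fold change -1.02 and -0.88), whereas Csf1r rose from 1.04 to 4.66 CPM at 3 days and from 0.835 to 4.14 CPM at 6 days (adjusted p = 1.11e-07 and 3.09e-08). The 8 endothelial markers summed to 135 to 142 CPM with DMSO and 147 to 162 CPM with WM-1119 at 3 days, and to 143 to 151 and 153 to 163 CPM at 6 days, with Kdr, Vwf and Cldn5 at 0. Of these Egfl7 rose at both times (adjusted p = 1.19e-06 and 9.05e-08), and Pecam1 fell at 6 days (adjusted p = 0.00149). The 7 erythroid markers found summed to 0.609 to 1.24 CPM. The part of these markers in the results was not tested. The 12 fibroblast markers summed to 2.15 to 23.2 CPM with DMSO and 2.04 to 54.2 CPM with WM-1119 at 6 days, against 2.67 to 4.36 and 2.52 to 7.54 CPM at 3 days, with 8 of the 12 under 1 CPM. Col1a1 was above 1 CPM in 5 libraries, namely replicates 1 and 2 of both 6-day groups and replicate 2 of WM-1119 at 3 days. Without these 5 libraries each 6-day group has 1 library, and results that change are given beside their values.

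Transcript levels of the 10 genes differed widely once divided by length (RPKM, CPM per kilobase of the counted gene). In DMSO at 3 days Jund had 61.1 ± 6.94 RPKM, Junb 33.0 ± 2.32 and Nr4a1 19.5 ± 1.08 (SD, n = 3). Nr4a3 followed with 4.42 ± 0.804 RPKM, Egr1 with 2.68 ± 0.628 and Fos with 1.72 ± 0.398. Egr2 at 0.692 ± 0.180 RPKM and Jun at 0.477 ± 0.130 lay lower, and Fosb at 0.0729 ± 0.0541 and Egr3 at 0.0109 ± 0.0189 were last. The libraries of neighbours in this order did not overlap, except for Egr1 with Fos and Egr2 with Jun. Within the JUN family, Jund and Junb made up 64.6% ± 0.972 and 34.9% ± 0.998 of the summed RPKM in DMSO at 3 days, with Jun at 0.504% ± 0.127.

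**Figure D1:**
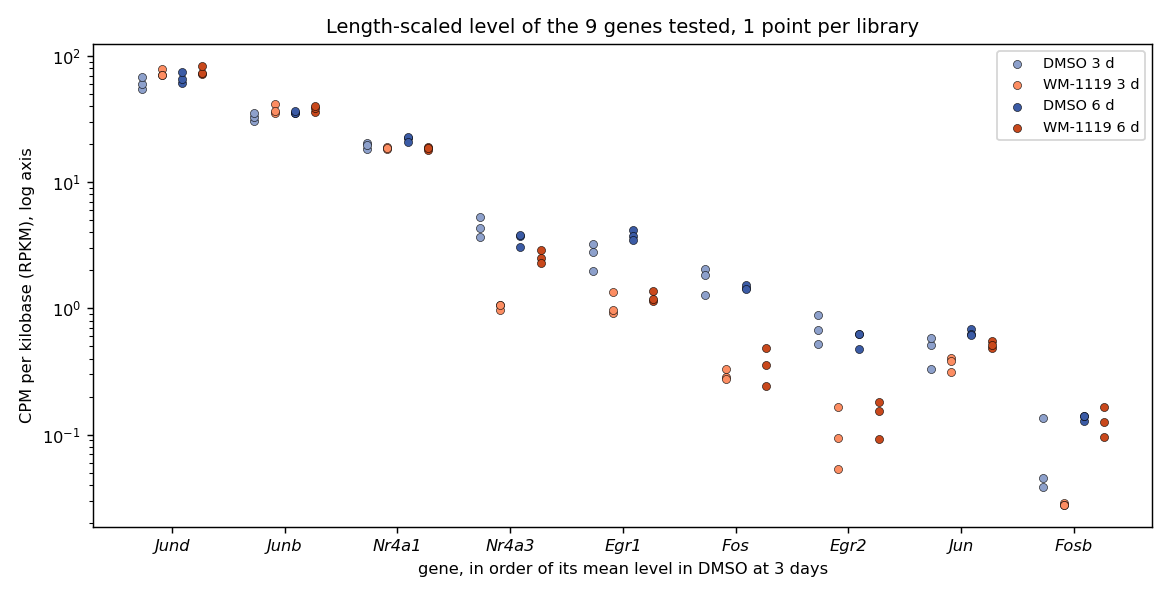
Level of the 9 tested genes in RPKM on a log axis, by group of 3 libraries; each point is a library. Jund, Junb and Nr4a1 hold the 3 highest places in every group; Egr3 is left out because several of its libraries have 0 counts.

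Across all groups Jund, Junb and Nr4a1 kept the first 3 places, and their libraries never overlapped with those of the next gene. The middle of the order differed between the groups. In WM-1119 at 3 days Fos, at 0.298 ± 0.0312 RPKM, lay below Jun, at 0.368 ± 0.0490 RPKM, with overlapping libraries, whereas in DMSO at 3 days the 3 Fos libraries were all above the 3 Jun libraries. The summed FOS family was 1.79 ± 0.435 RPKM with DMSO and 0.326 ± 0.0310 RPKM with WM-1119 at 3 days, while the summed JUN family was 94.5 ± 9.30 and 112 ± 7.57 RPKM. At 6 days the FOS sum was 1.62 ± 0.0610 and 0.491 ± 0.0871 RPKM and the JUN sum 103 ± 7.55 and 116 ± 7.98 RPKM. The summed EGR family was 3.38 ± 0.535 and 1.19 ± 0.271 RPKM at 3 days and 4.48 ± 0.417 and 1.47 ± 0.0873 RPKM at 6 days.

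The comparison at 3 days asked how the inhibitor changes these transcripts after the shorter exposure. Fos, Egr1, Egr2 and Nr4a3 fell and Junb rose slightly, while Fosb, Jun, Jund and Nr4a1 did not pass the test (edgeR's quasi-likelihood test, adjusted p below 0.05 over all 11997 genes tested). Egr3 was too low to be tested. Across all genes tested 12.7% were lower and 11.8% higher by the same rule, beside 4 and 1 of the 9. All 4 that fell did so by more than 2-fold, which 1.49% of all genes did. Ordered from the lowest fold change, Egr2 was 13, Fos 16, Nr4a3 26 and Egr1 101 of the 11997. At 6 days Fos, Egr1, Egr2, Nr4a1 and Nr4a3 fell and none of the 9 rose. The background was then 15.1% lower and 15.7% higher. Fos, Egr1 and Egr2 fell by more than 2-fold, which 2.33% of all genes did, and ranked 67, 109 and 72. In this bulk RNA fewer cells with a transcript and less of it per cell cannot be told apart.

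**Figure D2:**
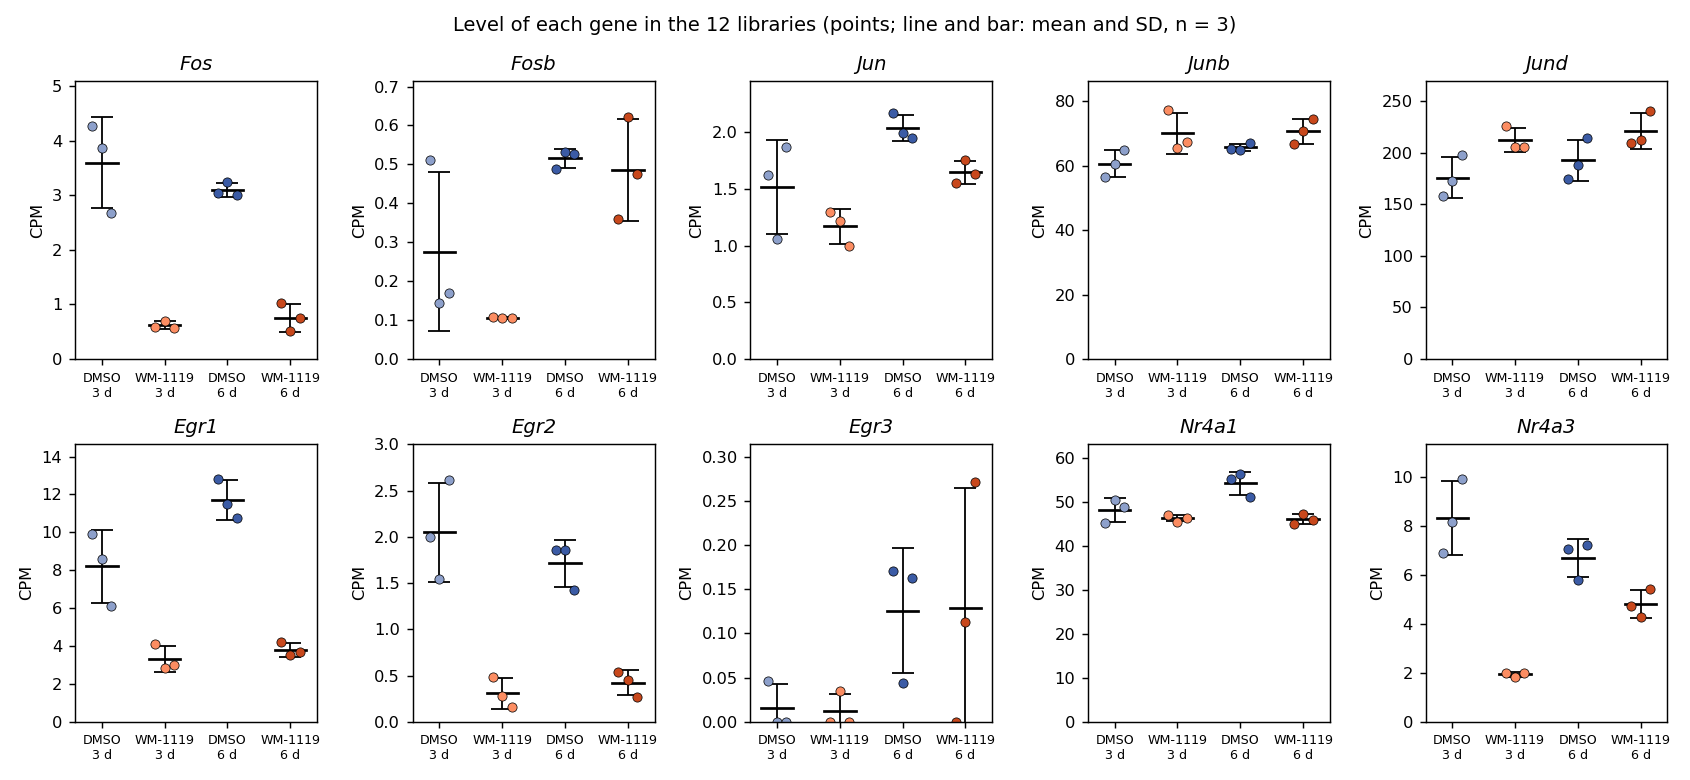
CPM of each of the 10 genes in the 12 libraries, with DMSO and WM-1119 side by side at 3 and 6 days; points are libraries, the horizontal line is the mean and the bar the SD of 3, and each panel has its own axis from 0. Fos, Egr1 and Egr2 are lower in all WM-1119 libraries at both times, whereas Nr4a3 is far lower at 3 days and only modestly lower at 6 days.

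Fos encodes the inducible partner of JUN proteins in AP-1 (chromosome 12, 85473890 to 85477274, mm10). It had 4.27, 3.86 and 2.67 CPM in the 3 DMSO libraries of 3 days and 0.595, 0.698 and 0.577 CPM in the WM-1119 libraries. Every treated library was below every control, and the fold change was 5.70 (log2 fold change -2.51 ± 0.25, SE; adjusted p = 1.51e-07). After 6 days the DMSO libraries had 3.05, 3.23 and 3.01 CPM and the WM-1119 libraries 1.02, 0.509 and 0.748 CPM. The groups again did not overlap, and Fos fell 4.07-fold (log2 fold change -2.03 ± 0.26; adjusted p = 2.59e-06). These levels rest on 47 to 125 counts per DMSO library and 9 to 20 per WM-1119 library.

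Fosb, a second FOS protein with the same zipper (chromosome 7, 19302696 to 19310118), was near the limit of counting. It had 11, 3 and 3 counts with DMSO and 2, 3 and 2 with WM-1119 at 3 days. The treated libraries were all lower as CPM, but the difference did not pass the test (log2 fold change -1.37 ± 0.63; adjusted p = 0.125). At 6 days it had 0.488, 0.532 and 0.528 CPM with DMSO and 0.359, 0.622 and 0.476 CPM with WM-1119. These overlapped, with a log2 fold change of -0.07 and a 95% interval from -0.92 to 0.78.

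Jun, the founding AP-1 member that can pair with itself as well as with FOS (chromosome 4, 95049036 to 95052222), had 1.62, 1.06 and 1.87 CPM with DMSO and 1.30, 1.22 and 0.997 CPM with WM-1119 at 3 days. The groups overlapped, and the log2 fold change was -0.36 ± 0.25 (95% interval -0.87 to 0.15; adjusted p = 0.321). At 6 days all 3 WM-1119 libraries, at 1.56, 1.75 and 1.63 CPM, were below the DMSO libraries at 2.17, 1.99 and 1.95 CPM. The difference still did not pass the test (log2 fold change -0.31 ± 0.22; adjusted p = 0.315).

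Junb and Jund, the abundant JUN members, which activate transcription less strongly than Jun in many settings, had slightly higher means with WM-1119 at both times. Junb (chromosome 8, 84976909 to 84978748) had 56.5, 60.5 and 65.0 CPM with DMSO and 77.5, 65.5 and 67.3 CPM with WM-1119 at 3 days. The groups did not overlap, and Junb rose 1.15-fold (log2 fold change 0.21 ± 0.07; adjusted p = 0.0241). This call was lost without DMSO replicate 1 (0.16, adjusted p = 0.141), DMSO replicate 2 (0.20, adjusted p = 0.0685) or WM-1119 replicate 1 (0.13, adjusted p = 0.162) of 3 days. At 6 days the values were 65.1, 64.9 and 67.1 CPM with DMSO and 66.8, 70.8 and 74.7 CPM with WM-1119, with overlap and a log2 fold change of 0.11 ± 0.07 (adjusted p = 0.234).

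Jund (chromosome 8, 70697739 to 70700616) had 158, 172 and 197 CPM with DMSO and 226, 205 and 206 CPM with WM-1119 at 3 days. The groups did not overlap, yet the difference missed the threshold (log2 fold change 0.27 ± 0.09; adjusted p = 0.0566). It passed in 9 of the alternative fits, among them DESeq2 (adjusted p = 0.00634), upper-quartile scaling (adjusted p = 0.0312), the fit of these groups alone (adjusted p = 0.0123) and the fit without the 5 libraries with Col1a1 (adjusted p = 0.0254). After 6 days the libraries had 175, 189 and 214 CPM with DMSO and 210, 212 and 241 CPM with WM-1119. They overlapped, with a log2 fold change of 0.20 ± 0.09 (adjusted p = 0.137). Replicates of the same number varied together at 6 days but not at 3 days. With the replicate number as a block over all 12 libraries, both times included, Jund was higher at 6 days (0.20, adjusted p = 0.0385). In each numbered pair of 6 days the WM-1119 library was the higher.

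Egr1, a zinc finger factor and the most abundant EGR transcript here (chromosome 18, 34861207 to 34864956), had 9.94, 8.59 and 6.13 CPM with DMSO and 4.11, 2.83 and 2.99 CPM with WM-1119 at 3 days. No treated library reached a control, and Egr1 fell 2.54-fold (log2 fold change -1.35 ± 0.17; adjusted p = 4.73e-06). At 6 days it had 12.8, 11.5 and 10.8 CPM with DMSO against 4.19, 3.50 and 3.67 CPM with WM-1119. The gap was wider than the spread of either group, and the fall was 3.10-fold (log2 fold change -1.63 ± 0.17; adjusted p = 1.25e-07).

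Egr2, a related zinc finger factor that acts in B and T cell activation (chromosome 10, 67534469 to 67542188), had the lowest fold change of the 10 genes at 3 days. Its DMSO libraries had 2.00, 1.54 and 2.61 CPM and its WM-1119 libraries 0.486, 0.279 and 0.157 CPM. The groups did not overlap, and Egr2 fell 6.61-fold (log2 fold change -2.73 ± 0.35; adjusted p = 4.02e-06). At 6 days the values were 1.85, 1.86 and 1.42 CPM with DMSO and 0.539, 0.452 and 0.272 CPM with WM-1119, again with no overlap and a 3.99-fold fall (log2 fold change -2.00 ± 0.35; adjusted p = 0.000117). The treated values are 3 to 9 counts a library. The gene reached the filter of 0.506 CPM in all DMSO libraries but in 0 of 3 treated libraries at 3 days and 1 of 3 at 6 days, so it was tested because of its level with DMSO. Its interval holds the annotated non-coding gene Gm32255, which has no row in the table, with a strand setting not given in the sources used here.

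Egr3, a close relative of Egr2 (chromosome 14, 70077317 to 70082613), was almost uncounted. It had 1, 0 and 0 counts with DMSO and 0, 1 and 0 with WM-1119 at 3 days, then 7, 1 and 4 with DMSO and 0, 2 and 4 with WM-1119 at 6 days. No difference was detectable at this depth.

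Nr4a1, also called Nur77 and widely used as a reporter of antigen receptor signals (chromosome 15, 101253902 to 101274795), was the abundant NR4A member. At 3 days it had 45.3, 50.6 and 48.9 CPM with DMSO and 47.0, 45.6 and 46.5 CPM with WM-1119. These overlapped, and the log2 fold change of -0.06 ± 0.06 had a 95% interval from -0.18 to 0.06 (adjusted p = 0.517), a range that leaves out a change as large as that of Nr4a3. At 6 days the 3 treated libraries, at 45.0, 47.4 and 46.0 CPM, lay below the DMSO libraries at 55.3, 56.4 and 51.3 CPM. Nr4a1 fell 1.18-fold (log2 fold change -0.23 ± 0.06; adjusted p = 0.00342). Without the 5 libraries that held Col1a1 the value was -0.16 and did not pass (adjusted p = 0.42).

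Nr4a3, the third receptor of the family (chromosome 4, 48045078 to 48086447), had 6.92, 8.16 and 9.93 CPM with DMSO at 3 days and 2.00, 1.81 and 1.99 CPM with WM-1119. The treated libraries lay close together and far below the controls, and Nr4a3 fell 4.30-fold (log2 fold change -2.10 ± 0.17; adjusted p = 4.39e-09). After 6 days the DMSO libraries had 7.07, 5.80 and 7.23 CPM and the treated libraries 4.73, 4.30 and 5.44 CPM. The groups still did not overlap, but the fall was 1.40-fold (log2 fold change -0.49 ± 0.15; adjusted p = 0.0158). That call was lost without DMSO replicate 1 (-0.44, adjusted p = 0.06), without WM-1119 replicate 2 (-0.42, adjusted p = 0.0743) of 6 days and without the 5 libraries with Col1a1 (-0.41, adjusted p = 0.356). As a share of the summed Nr4a1 and Nr4a3 RPKM, Nr4a3 was 18.4% ± 2.33 with DMSO and 5.20% ± 0.201 with WM-1119 at 3 days, and 14.0% ± 1.89 and 12.1% ± 1.41 at 6 days.

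**Figure D3:**
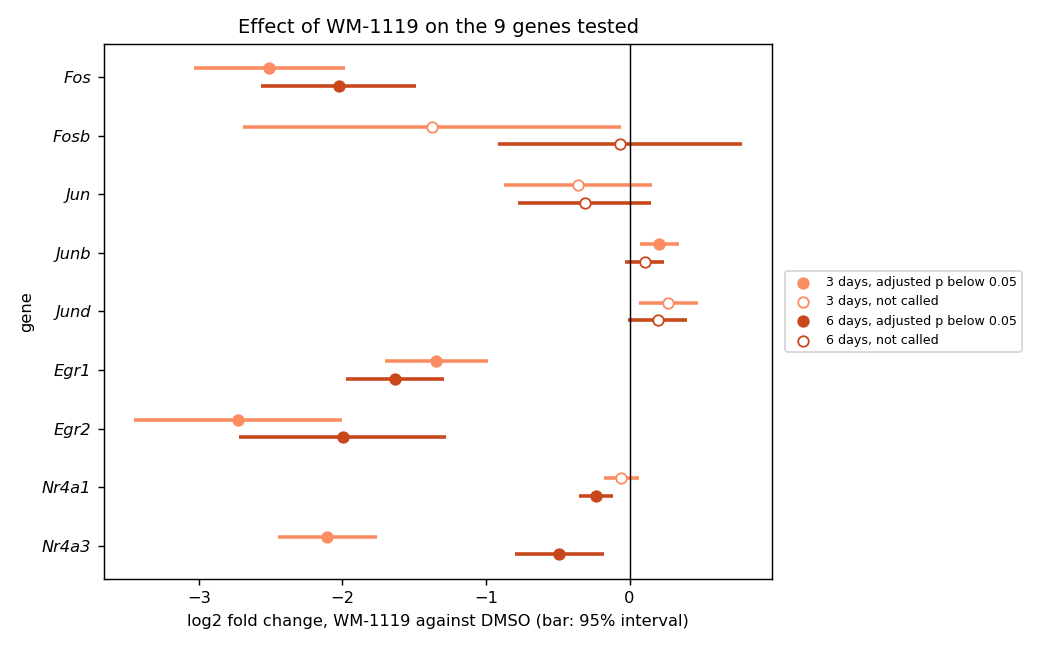
Log2 fold change of WM-1119 against DMSO at 3 and 6 days for the 9 genes tested, with 95% intervals from the edgeR fit; filled points passed the test. The interval of Nr4a3 at 3 days, -2.45 to -1.76, lies apart from that at 6 days, -0.80 to -0.18, whereas the intervals of the other 8 genes overlap between the times.

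Libraries that did not overlap between treatments were counted beside the tests. At 3 days the treated libraries were all lower for 5 of the 10 genes, Fos, Fosb, Egr1, Egr2 and Nr4a3, and all higher for Junb and Jund. Over all genes tested the shares were 20.4% and 19.5%. At 6 days they were all lower for 6, Fos, Jun, Egr1, Egr2, Nr4a1 and Nr4a3, and all higher for 0, beside 19.9% and 21.4% of all genes.

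Whether the effect differed between the times was tested as an interaction. Nr4a3 alone of the 9 passed, with an effect 1.62 ± 0.23 higher on the log2 scale at 6 than at 3 days (95% interval 1.14 to 2.09; adjusted p = 0.000675). By this test 0.4% of all genes were called in that direction and 0.325% in the other. Without the 5 libraries with Col1a1 the difference was 1.64 and did not pass (adjusted p = 0.0946). For Fos the difference between the times was 0.48 (95% interval -0.34 to 1.30), for Egr1 -0.29 (-0.80 to 0.22) and for Egr2 0.73 (-0.41 to 1.86), so changes of about 2-fold in the effect of Fos and Egr2 are inside their intervals.

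The times were then compared within each treatment, in libraries that the comparisons above also use. In DMSO 0 of the 9 genes passed between 3 and 6 days in the edgeR test, beside 0.45% of all genes lower and 0.358% higher. At an unadjusted p under 0.05 Egr1, Nr4a1 and Nr4a3 differed, and with DESeq2 0 of the 9 passed. Egr1 was higher in all 3 DMSO libraries of 6 days, with a log2 fold change of 0.51 ± 0.14 (adjusted p = 0.104). It passed with no filter on low counts (adjusted p = 0.0329) and with the replicate block (adjusted p = 0.0302). Nr4a1 and Jun were also higher in all 3; over all genes 7.75% were higher and 8.9% lower without overlap. In WM-1119 Nr4a3 rose 2.49-fold from 3 to 6 days (log2 fold change 1.32 ± 0.18; adjusted p = 0.000196) and Fosb 4.44-fold (2.15 ± 0.58; adjusted p = 0.0324), beside 2.33% of all genes higher and 3.29% lower. The Fosb call rests on 2, 3 and 2 counts at 3 days and 6, 11 and 7 at 6 days. It was lost when any of 5 of the 6 WM-1119 libraries was left out (adjusted p of 0.052 to 0.146), and with replicate 2 of 3 days left out, or without the 5 libraries with Col1a1, Fosb was below the filter. For this comparison Fosb had an adjusted p in only 12 alternatives, against 22 for Nr4a3, and it kept the call in 7 of the 12.

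Other members of these families were taken from a list of 12, of which 8 could be tested. At 3 days 2 rose and 1 fell, beside 11.8% of all genes higher and 12.7% lower. At 6 days 2 rose and 2 fell, beside 15.7% higher and 15.1% lower. The median log2 fold change of the 8 was -0.09 at 3 days and -0.02 at 6 days. Atf3, a stress-induced zipper protein that pairs with JUN, fell from 2.32 ± 0.766 to 0.922 ± 0.421 CPM at 3 days (adjusted p = 0.00122) and from 3.71 ± 0.276 to 0.581 ± 0.164 CPM at 6 days (log2 fold change -2.65 ± 0.31; adjusted p = 7.4e-07). Batf, which pairs with JUN proteins in lymphocytes, rose from 9.94 ± 1.42 to 14.4 ± 1.25 CPM and from 9.46 ± 0.603 to 15.1 ± 1.07 CPM (adjusted p = 0.000952 and 3.46e-05). Fosl2, a FOS relative, rose at 3 days, from 2.46 ± 0.625 to 4.27 ± 0.0978 CPM (adjusted p = 0.00476), and had a log2 fold change of 0.45 at 6 days (adjusted p = 0.0871). Fos and Atf3 thus fell in the same libraries in which Batf rose. Jdp2, a repressor that pairs with JUN, rose at 6 days (0.33, adjusted p = 0.000154) and had -0.01 at 3 days. Maff, a small MAF protein, fell at 6 days (-0.81, adjusted p = 0.00379) and had -0.12 at 3 days, and Mafg and Mafk passed at neither time. Nr4a2, the remaining receptor of the NR4A family, had 9.80 CPM in DMSO and 9.07 CPM in WM-1119 at 3 days, with a log2 fold change of -0.11 (adjusted p = 0.540), and -0.01 at 6 days (adjusted p = 0.975).

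The corepressors Nab1 and Nab2 bind EGR proteins and limit them, and both fell at both times. Nab2, itself an EGR target, went from 10.2 ± 1.70 to 7.55 ± 0.237 CPM at 3 days (adjusted p = 0.00656) and from 11.6 ± 0.363 to 7.84 ± 0.159 CPM at 6 days (adjusted p = 0.000448). Nab1 fell by 0.30 and 0.19 on the log2 scale (adjusted p = 0.000312 and 0.0122).

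**Figure D4:**
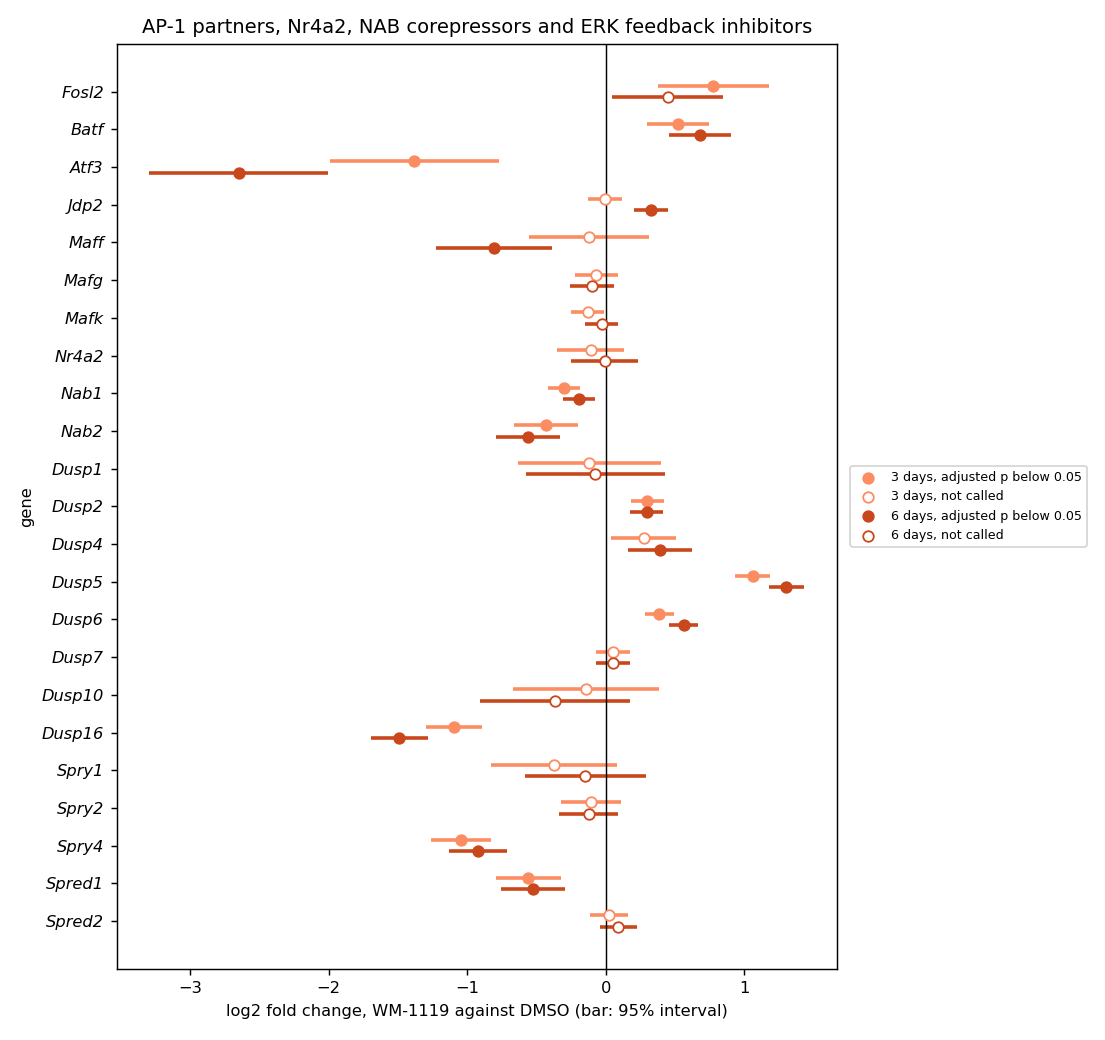
Log2 fold changes at 3 and 6 days of AP-1 partners, EGR corepressors and mainly ERK feedback genes, with 95% intervals from the edgeR fit. Filled points passed the test, and Dusp16 encodes a JNK phosphatase. Atf3, Nab1, Nab2, Dusp16 and Spry4 lie below 0 and Batf, Dusp5 and Dusp6 above it at both times.

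The counts of called genes in the lists that follow stand beside 12.7% of all genes lower and 11.8% higher at 3 days, and 15.1% lower and 15.7% higher at 6 days. Upstream of the immediate-early genes, transcripts moved in both directions. Of 17 factors that act at their promoters, 3 rose and 1 fell at 3 days and 4 rose and 3 fell at 6 days, with medians of 0.03 and -0.01. Elk3, an ETS partner of SRF, rose from 50.7 ± 4.52 to 67.5 ± 0.420 CPM and from 48.0 ± 3.03 to 70.3 ± 5.68 CPM. Crtc3, a coactivator of CREB, fell by 0.44 and 0.52 on the log2 scale, and Mrtfa, a coactivator of SRF, rose by 0.25 and 0.26. Srf itself fell by 0.24 at 6 days (adjusted p = 0.0288) and had -0.11 at 3 days (adjusted p = 0.337). Crem, a CREB relative, fell at 6 days from 12.1 ± 1.67 to 7.98 ± 0.279 CPM.

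In the RAS and ERK cascade 6 of 21 tested genes rose and 5 fell at 3 days, and 6 rose and 2 fell at 6 days. Rasgrp2, an exchange factor for RAP and RAS proteins, rose by 0.85 and 0.99 on the log2 scale, and Rps6ka1, which encodes a kinase below ERK that acts on CREB and SRF, by 0.69 and 0.81. Mapk3, which encodes ERK1, rose by 0.34 and 0.29. Of 11 JNK and p38 genes 2 rose and 2 fell at each time. Of 16 calcium and NFAT genes 4 rose and 2 fell at 3 days and 7 rose and 1 fell at 6 days, among them Nfatc1, which rose by 0.29 and 0.37, and Plcg2, the phospholipase below the B cell receptor, by 0.26 and 0.28. Thus Fos, Egr1 and Egr2 transcripts fell in libraries where several transcripts of the cascades known to induce them rose; protein and phosphorylation were not measured.

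A list of mainly ERK feedback inhibitors, which also holds the JNK phosphatase gene Dusp16, moved both ways. Of 13 tested, 3 rose and 3 fell at 3 days, and 4 rose and 3 fell at 6 days, Dusp16 among those that fell. The ERK phosphatase gene Dusp5 went from 48.7 ± 4.39 to 102 ± 6.98 CPM at 3 days and from 47.8 ± 0.199 to 118 ± 2.97 CPM at 6 days, and Dusp6 rose by 0.39 and 0.56 on the log2 scale. Dusp16 fell from 23.4 ± 1.29 to 8.33 ± 0.327 CPM at 6 days, and Spry4 fell by 1.04 and 0.92 on the log2 scale. Of 10 genes that act on the turnover of JUN, FOS and their messenger RNAs 2 fell and 0 rose at both times: Zfp36, whose protein destabilises AU-rich messenger RNAs, by 0.47 and 0.66, and Zfp36l1 by 0.56 and 0.38. A count of 2 of 10 is near the share of all genes that fell.

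A list of 35 other immediate-early genes, 26 of them tested, showed no single direction. At 3 days 6 rose and 10 fell, and at 6 days 8 rose and 11 fell, with median log2 fold changes of -0.22 and -0.09 beside 0.00 for all genes. Rhob fell from 55.7 ± 1.23 to 30.4 ± 2.05 CPM at 3 days and from 52.4 ± 0.714 to 27.9 ± 0.675 CPM at 6 days, and Btg1 by 0.61 and 0.70 on the log2 scale. Ier5 fell by 0.79 at 3 days. In the other direction Klf10 rose by 0.60 and 0.61, and Csrnp1 by 0.59 at 6 days.

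**Figure D5:**
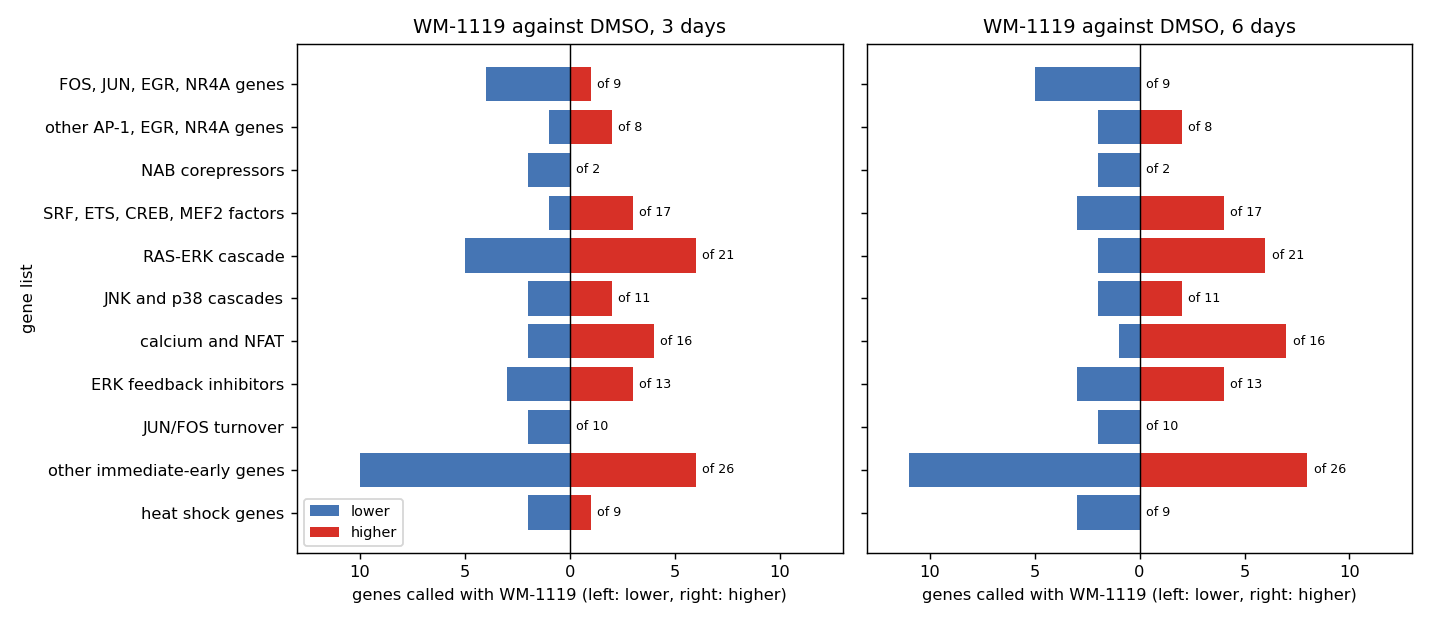
Number of genes lower (left) or higher (right) by the edgeR test at 3 and 6 days, of the number tested, in the 9 tested immediate-early genes and in each list of related genes. Every list of more than 10 tested genes holds both higher and lower calls at both times.

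Genes whose profile over the 12 libraries was nearest to that of a member were sought among 9565 other genes of at least 5 CPM, by the root mean square difference of log2(CPM + 1) after centring, a scale that compresses low genes. For Fos these were Stac (0.155), Rdh10 (0.209) and Rras2 (0.209), beside a root mean square of 0.697 of Fos about its own mean. For Egr2 they were Tmprss3 (0.162), Rras2 (0.170) and Rap2a (0.183), and for Egr1 Serpinb1a (0.221), Mboat2 (0.224) and Hs3st3b1 (0.227). Nr4a3 had Ephx1 (0.242), Plce1 (0.250) and Tnfrsf19 (0.310) as its nearest. Ephx1 had 9.38 CPM in DMSO and 2.66 CPM in WM-1119 at 3 days and 7.38 and 4.35 CPM at 6 days. Its smaller difference at 6 days, as in Nr4a3, follows from its choice by nearness to that profile and is no separate evidence. The nearest to Nr4a1 was Mrto4 (0.046), to Junb Isg20l2 (0.054), to Jun Sgpl1 (0.113) and to Fosb Rps6ka2 (0.115).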

How the data were processed

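RNA-seq libraries were made with a stranded mRNA kit, per the labels' protocols. The authors deposited whole-number read counts per gene for 12 libraries, made with featureCounts on build mm10 per the submitters' processing notes; the aligner, strand setting and treatment of shared reads are not stated there. Of 27179 rows, 874 without a gene identifier (0.305% to 0.362% of counts) were left out. The 10 members were read by Entrez identifier, and 25275 of 26305 identifiers had a RefSeq symbol. Genes were filtered with filterByExpr (minimum count 10, 0.506 CPM), scaled by TMM and tested with edgeR 4.0.16 (R 4.3.3; quasi-likelihood, robust, 4 group means, all 12 libraries); two-sided p-values were adjusted by Benjamini-Hochberg over 11997 genes. The script was tested on simulated data. An exact permutation of 3 against 3 cannot go below p = 0.1.

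Members and lists were chosen with earlier results of these data known. Named beside the members were, of each other list, up to 4 called genes of smallest p at each time, the other family members and NAB genes, and the 3 genes nearest in profile; some of these are not reported here. Srf, Ms4a1 and the T cell, macrophage and endothelial markers other than Cd3e, Adgre1 and Csf1r were named after their values were seen. The common coefficient of variation was 5.69%. The alternatives tried were scaling by RLE or upper quartile, no filter, 1 CPM in 3 libraries, DESeq2 1.42.0, limma voom 3.58.1, a fit of the compared groups only, a replicate block, thinning to 14691369 counts, and leaving out each library. Leaving out the 5 libraries with Col1a1, and the block in the 6-day groups alone, were chosen after seeing the data. Same-numbered DMSO and WM-1119 libraries deviated together at 6 days (correlations across genes 0.193, 0.144 and 0.243) but not at 3 days (-0.023, 0.039 and 0.006). Pairs at 6 days were thus inferred from these data, as the labels do not say what a number marks. The main tests used no block, and the replicate block over all 12 libraries also tied the numbers at 3 days.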

Additional observations from a re-analysis of the deposited data

Results flagged for a closer look

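Nr4a3 was marked because the effect of WM-1119 differed between 3 and 6 days by a test of the difference itself: the log2 fold change was 1.62 ± 0.23 higher at 6 days (edgeR, adjusted p = 0.000675), with treated means of 1.94 ± 0.105 CPM at 3 days and 4.82 ± 0.579 CPM at 6 days against 8.33 ± 1.51 and 6.70 ± 0.782 CPM in DMSO (SD, n = 3). It was the only one of the 9 members tested that was marked.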

How the results depend on the processing

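Of 942 values of single members under the alternatives, 915 kept their side of the threshold, 14 gained a call and 13 lost one. Of values called in the main or the alternative fit, 0 changed direction. Values called in neither could change sign, as Fosb at 6 days did (log2 fold change -0.31 to 0.10 over the alternatives). A member with no adjusted p in an alternative is not among the 942. Fos, Egr1 and Egr2 stayed lower at both times, and Nr4a3 at 3 days, in every alternative run; their highest adjusted p was 0.0404, for Egr2 at 6 days. At 3 days 4 members were lower throughout; 2 instead of 1 were higher with upper-quartile scaling, DESeq2, the replicate block (Jund, adjusted p = 0.00856), only the groups compared, and without the 5 libraries with Col1a1, and 0 to 2 with a library left out. At 6 days 3 instead of 5 were lower without the libraries with Col1a1 (4 to 5 with a library left out), and 1 instead of 0 was higher with the replicate block and with the block in the 6-day groups alone (Jund, 0.20, adjusted p = 0.00063), and 0 to 1 with a library left out (Jund without DMSO replicate 3 of 6 days, adjusted p = 0.0257). The interaction called 0 members instead of 1 without the libraries with Col1a1, where 6 days has 1 library against 1 whose spread is assumed to be that of the 3-day groups. Between the times in DMSO 1 member instead of 0 was higher with no filter and with the replicate block (Egr1, adjusted p = 0.0329 and 0.0302). In WM-1119 1 instead of 2 was higher with a filter of 1 CPM, DESeq2, only the groups compared and without the libraries with Col1a1, and 1 to 2 with a library left out; Fosb was then under a filter, had no adjusted p or missed the threshold. The replicate block changed no other call of a member. Only the groups compared was not run for the interaction, which needs all 4.

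Counts over all genes moved more. Without the libraries with Col1a1 713 were lower and 803 higher at 6 days, instead of 1812 and 1881. Over all alternatives the interaction had 4 to 124 lower (39 as reported) and 1 to 93 higher (48), DMSO between the times 15 to 423 lower (54) and 21 to 114 higher (43), and WM-1119 between the times 173 to 717 lower (395) and 65 to 445 higher (279). The causes were not tested. Depth limits Egr3, Fosb and the treated levels of Egr2, which rest on 0 to 20 counts a library. Intervals cover the spread between these samples of 1 line.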

Other observations

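Heat-shock genes, which like immediate-early genes can respond to handling of cells, were read as a list of 10, of which 9 were tested. At 3 days 1 rose and 2 fell, beside 11.8% of all genes higher and 12.7% lower. At 6 days 0 rose and 3 fell, beside 15.7% higher and 15.1% lower. Hspa1b, an inducible HSP70 gene, fell from 10.1 ± 1.17 to 2.61 ± 0.257 CPM at 3 days (log2 fold change -1.93 ± 0.14, SE; edgeR adjusted p = 5.77e-10) and from 9.04 ± 0.470 to 2.20 ± 0.239 CPM at 6 days (-2.03 ± 0.14; adjusted p = 4.31e-10; SD, n = 3). It is nearly identical to Hspa1a, so the division of reads between the pair is uncertain. Hsph1, a partner of HSP70, fell by 0.27 and 0.15 on the log2 scale, and Dnaja1 rose by 0.12 at 3 days (adjusted p = 0.0484).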
